A study of Arabidopsis thaliana with 2 samples.

Results

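Between the embryo and the endosperm of a developing seed, small sulfated peptides and their receptors control how the embryo's cuticle is closed, and 9 genes of this signalling were followed here among 33602 gene models of Arabidopsis thaliana. They are a set of gene identifiers, with no threshold on measured values. TWS1, CIF1 and CIF2 encode peptide precursors, GSO1 and GSO2 receptor kinases, ALE1 a protease, ZOU and ICE1 transcription factors, and KRS a small secreted protein. The reference annotation gives no symbol for 4 of them (TWS1, CIF1, CIF2 and KRS), which carry here the names in common use, and it lists ZOU under its synonym RGE1.

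RNA of whole developing seeds at 10 DAP (the age as labelled) was sequenced in 2 libraries. The first came from plants labelled OLEOp:GmPSKγ1, a construct of the soybean gene for a precursor of phytosulfokine, itself a sulfated peptide. The second came from plants labelled OLEOp:GmPSKγ1tc, the submitters' control, whose construct label carries the same OLEOp. No source used here states what the letters tc stand for or in which seed cells the promoter is active. Each library pools RNA of 3 lines, so there is 1 library per genotype, the spread between lines is not known, and no difference below has a replicate check or a p-value. As estimated from the steps between low values, the deposited levels were scaled to about 16400000 reads in GmPSKγ1 and 15300000 reads in GmPSKγ1tc. Levels are in FPKM, reads or fragments corrected for gene length and library size. The tissue label was met by storage protein transcripts: SESA3, a seed storage albumin gene, was the most abundant model in both, at 27054 FPKM in GmPSKγ1 and 34812 FPKM in GmPSKγ1tc.

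As background, the embryo and the endosperm each hold parts of a relay. The TWS1 precursor is made in the embryo, sulfated on a tyrosine, and cut by ALE1, a subtilisin-like protease made in the endosperm. The released peptide binds GSO1 and GSO2 on the embryo surface, so a gap in the cuticle lets the parts meet and cuticle repair goes on until the barrier is closed. CIF1 and CIF2 are sulfated ligands of the same receptors, best known from the Casparian strip of the root. ZOU and ICE1 are partner bHLH factors of the endosperm that are needed for ALE1 and KRS expression, and KRS is needed for the sheath that keeps embryo and endosperm apart.

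The sulfated tyrosine follows an aspartate in all 3 peptides, and the coding DNA from that Asp-Tyr pair onward is printed to show what the ligand genes share. The coding sequences of TWS1 and CIF1 and the longer one of CIF2 hold a single in-frame Asp-Tyr codon pair, at codons 32 of TWS1 and 63 of CIF1 and CIF2. The stretches of 63 bases lie at chr5:27185-27247 (minus strand, TWS1), chr2:7095492-7095554 (plus strand, CIF1) and chr4:16529893-16529955 (plus strand, CIF2) of TAIR10.1, all exonic and coding. They were read 5′ to 3′ on the coding strand from RefSeq's genome, and capitals mark the Asp and Tyr codons.
TWS1: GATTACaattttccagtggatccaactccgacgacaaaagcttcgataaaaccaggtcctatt
CIF1: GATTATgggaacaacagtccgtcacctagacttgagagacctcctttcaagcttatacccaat
CIF2: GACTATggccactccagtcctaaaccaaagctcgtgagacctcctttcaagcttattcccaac
In CIF1 and CIF2 these 21 codons run to the stop codon, and 48 of the 63 bases are identical between the 2 genes. TWS1 shares 22 of 63 bases with each of them in the same ungapped frame, and its reading frame goes on past the stretch, with 50 codons from the pair to the stop. A second RefSeq transcript of CIF2 has a coding sequence of 64 codons with no Asp-Tyr pair.

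**Figure D1:**
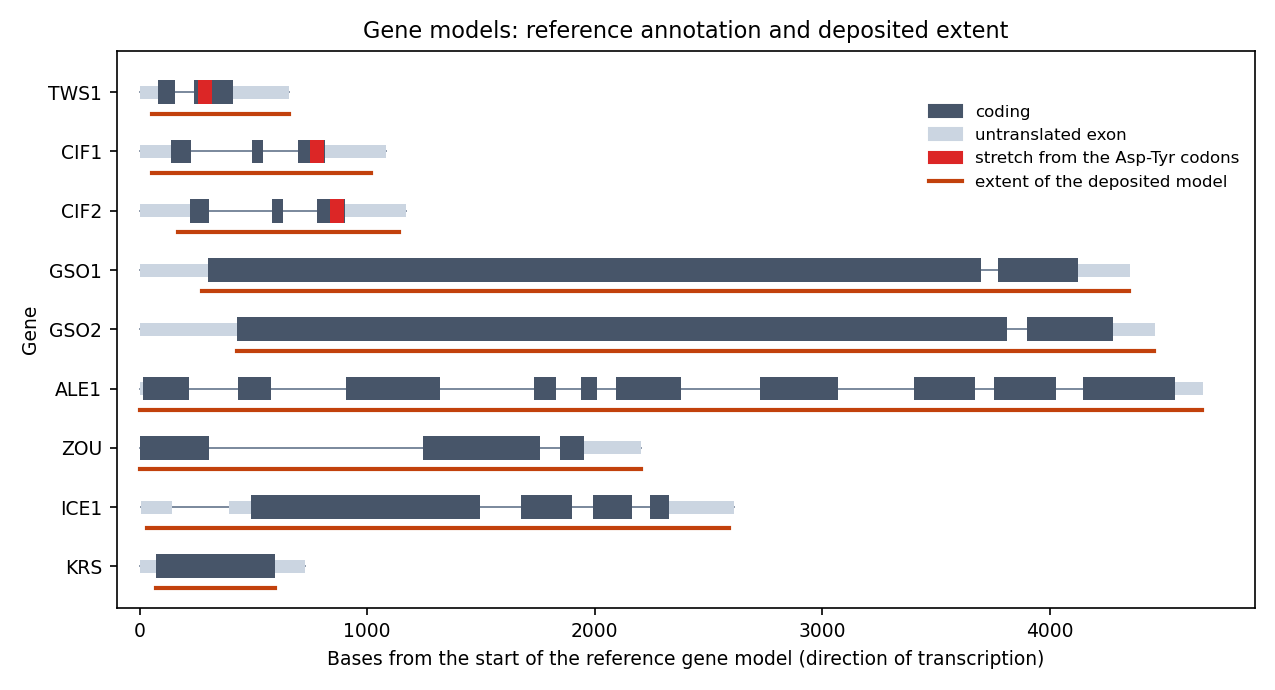
Gene models of the 9 genes, drawn in bases from the start of the reference model in the direction of transcription, with coding parts (dark), untranslated exons (light), the 63-base stretches of the peptide genes (red) and, under each, the extent of the deposited model (orange line). The deposited extent equals the reference model for 2 genes, ALE1 and ZOU, and for KRS it covers the coding part alone.

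The deposited models decide which reads were counted. The KRS model (AT1G50650; chromosome 1, 18763773 to 18764297) is a single exon of 525 bases that leaves out both untranslated parts of the reference model. The GSO2 model (AT5G44700; chromosome 5, 18032864 to 18036894) begins at the start codon, and the ends of TWS1, CIF1, CIF2, GSO1 and ICE1 also differ from the reference. Reads per gene could be recovered as whole numbers in both libraries for 8 of the 9 genes. The exception is ICE1 (AT3G26744; chromosome 3, 9832689 to 9835247), which has 5 annotated transcripts, so its read counts are approximate.

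The peptide genes stood at very different levels, and TWS1 dominated in both libraries. TWS1 (AT5G01075; chromosome 5, 26848 to 27449 of TAIR10) reached 159.6 FPKM in GmPSKγ1 and 151 FPKM in GmPSKγ1tc, on 1358 and 1198 reads. It ranked 536th of all models in GmPSKγ1 and 514th in GmPSKγ1tc. CIF2 (AT4G34600; chromosome 4, 16529225 to 16530199) was far lower, at 4.01 FPKM in GmPSKγ1 and 2.98 FPKM in GmPSKγ1tc, on 36 and 25 reads. CIF1 (AT2G16385; chromosome 2, 7094799 to 7095759) had 2 reads in GmPSKγ1, or 0.227 FPKM, and none in GmPSKγ1tc, where 0 reads allow a level of up to 0.365 FPKM (3 reads). TWS1 thus made up 97.4% of the summed FPKM of the 3 peptide genes in GmPSKγ1 and 98.1% in GmPSKγ1tc. The level of TWS1 was 39.8-fold that of CIF2 in GmPSKγ1 (95% counting interval 28.6 to 57.1) and 50.6-fold in GmPSKγ1tc (34.1 to 78.5).

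Between the libraries, no peptide gene differed beyond counting error. Ratios are given as FPKM in GmPSKγ1 over FPKM in GmPSKγ1tc, with an exact 95% interval (Clopper-Pearson) from the reads of the 2 libraries. These intervals cover counting error only: the reads carry no molecular identifiers, so they are not a count of molecules, and the lines were not sequenced apart. In whole seeds, fewer cells of a type and less RNA per cell cannot be told apart. The ratio was 1.06 for TWS1 (0.979 to 1.15) and 1.35 for CIF2 (0.785 to 2.34). Both intervals include 1, so the reads leave the direction of either gene unresolved. No fold is given for CIF1, since both libraries lie under 3 reads.

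Both receptor genes were lower in GmPSKγ1. GSO2 had 16.3 FPKM in GmPSKγ1 and 19.7 FPKM in GmPSKγ1tc, on 1055 and 1192 reads, a ratio of 0.827 (0.760 to 0.899). GSO1 (AT4G20140; chromosome 4, 10884197 to 10888270) stood at 14.8 FPKM in GmPSKγ1 and 16.9 FPKM in GmPSKγ1tc, on 967 and 1035 reads, a ratio of 0.873 (0.799 to 0.954). The models of GSO1 and of AT4G20150 on the opposite strand overlap by 9 bases, and whether the libraries keep the strand is not stated. The coding sequences of GSO1 and GSO2 are 78.5% identical over aligned bases. None of the 36-base windows of either model recurs exactly in the genome. Only exact repeats were looked for, so reads placed with mismatches were not examined. GSO2 was the more abundant receptor in both libraries, 1.11-fold over GSO1 in GmPSKγ1 (1.01 to 1.21) and 1.17-fold in GmPSKγ1tc (1.07 to 1.27). The summed receptor level was 31.1 FPKM in GmPSKγ1 and 36.6 FPKM in GmPSKγ1tc.

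The genes of the endosperm side did not all lie on the same side of 1. KRS had 42.4 FPKM in GmPSKγ1 and 32.8 FPKM in GmPSKγ1tc, on 365 and 264 reads, a ratio of 1.29 (1.10 to 1.52). ALE1 (AT1G62340; chromosome 1, 23051002 to 23055672) stood at 16.2 FPKM in GmPSKγ1 and 13.8 FPKM in GmPSKγ1tc, on 699 and 557 reads, a ratio of 1.17 (1.05 to 1.31). Both genes that need the bHLH pair for their expression were thus higher in GmPSKγ1. The interval of KRS stayed above 1 in each of the 3 rescalings tried. That of ALE1 became 0.990 to 1.24 with the libraries rescaled without the 50 most abundant genes.

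ICE1, the more abundant bHLH gene, stood at 64.2 FPKM in GmPSKγ1 and 56.1 FPKM in GmPSKγ1tc, on about 2320 and 1896 reads, a ratio of 1.14 (1.08 to 1.22). ZOU (AT1G49770; chromosome 1, 18424578 to 18426782) stood at 9.74 FPKM in GmPSKγ1 and 11.4 FPKM in GmPSKγ1tc, on 188 and 206 reads, a ratio of 0.852 (0.696 to 1.04). The direction of ZOU was not resolved by its reads at the deposited scale. The interval lay below 1 when the libraries were rescaled without the 50 most abundant genes (0.658 to 0.986). ICE1 was 6.59-fold above ZOU in GmPSKγ1 (5.68 to 7.69) and 4.91-fold above it in GmPSKγ1tc (4.25 to 5.70). These are levels of whole seeds, and how much of either came from the endosperm is not known.

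**Figure D2:**
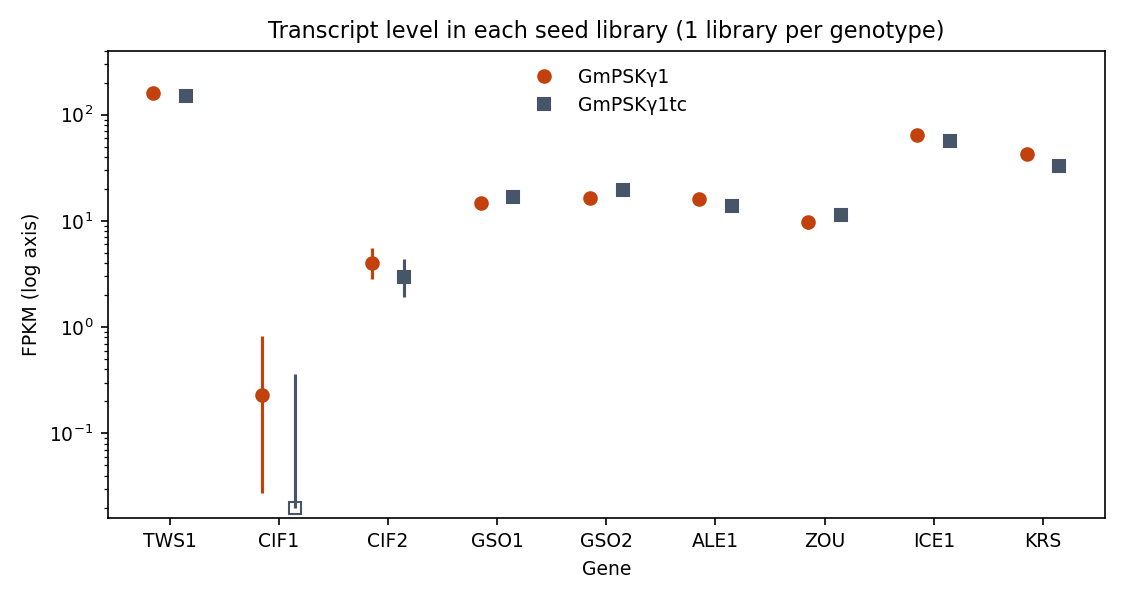
FPKM of each gene (log axis) in GmPSKγ1 (circles) and GmPSKγ1tc (squares), 1 library each. Lines are 95% counting intervals, hidden by the symbols at high counts, and the open square at the axis floor marks CIF1, which had 0 reads in GmPSKγ1tc. Levels run from 159.6 and 151 FPKM for TWS1 down to 0.227 and 0 FPKM for CIF1.

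The order of the levels was nearly the same in both libraries. TWS1, ICE1 and KRS led it, and ZOU, CIF2 and CIF1 closed it. In the middle, the counting intervals of GSO2, ALE1 and GSO1 overlapped one another in GmPSKγ1. In GmPSKγ1tc the order was GSO2, GSO1, ALE1 and ZOU, and there the overlap was between ALE1 and ZOU. The ratio of ALE1 to GSO2 was 0.991 in GmPSKγ1 (0.900 to 1.09) and 0.699 in GmPSKγ1tc (0.631 to 0.774).

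**Figure D3:**
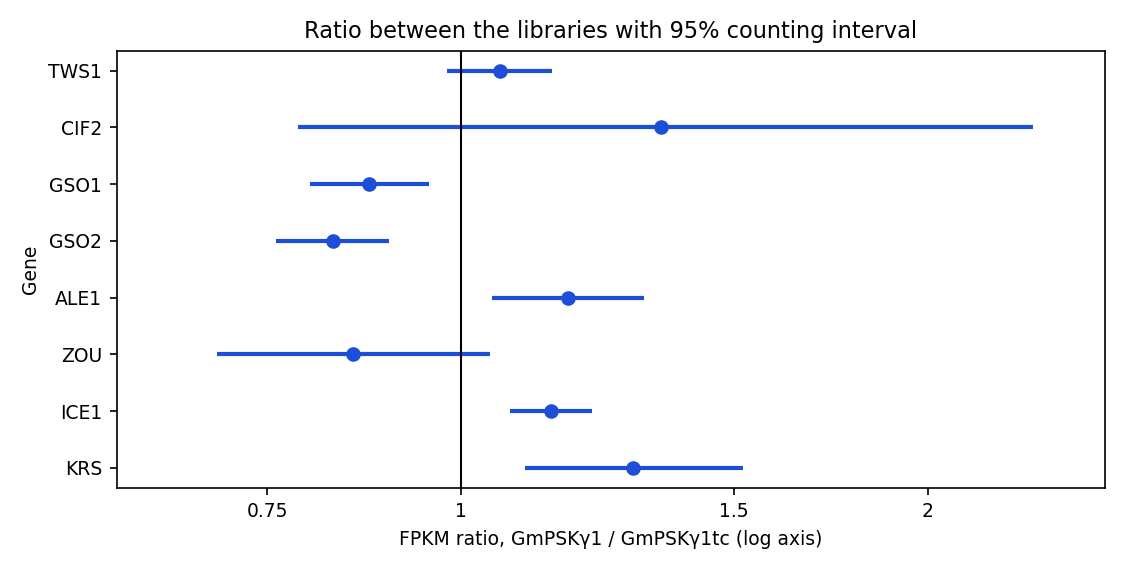
Ratio of FPKM in GmPSKγ1 to FPKM in GmPSKγ1tc (log axis) for the 8 genes that averaged 1 FPKM or more, with 95% counting intervals as lines and no difference as the vertical line at 1. The intervals of GSO1 and GSO2 lie below 1, those of ALE1, ICE1 and KRS lie above 1, and those of TWS1, CIF2 and ZOU include it.

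Counted together, 8 of the 9 genes reached a mean of 1 FPKM, the minimum used here, with CIF1 below it. Of these 8, 5 were higher in GmPSKγ1 and 3 were lower, and 57.9% of all measured models had a log2 ratio above 0. None was 2-fold or more apart on the log2(FPKM + 1) scale, where 1.23% of the 17816 measured gene models were (0.410% higher and 0.819% lower in GmPSKγ1). The pseudocount of 1 understates differences of low genes. Their log2 ratios ran from -0.26 for GSO2 to 0.36 for KRS with a median of 0.14, beside a median of 0.05 over all measured models and quartiles of -0.11 and 0.21. The interval of the ratio excluded 1 for 5 of the 8, and for 4 of the 7 whose models overlap no other. Across all 14636 measured models that overlap no other, it did so for 38.0% (23.3% above 1 and 14.7% below), so counting intervals at this depth often exclude 1. A log2 ratio larger in size than that of KRS was seen in 18.0% of measured models, and one larger than that of GSO2 in 30.8%.

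**Figure D4:**
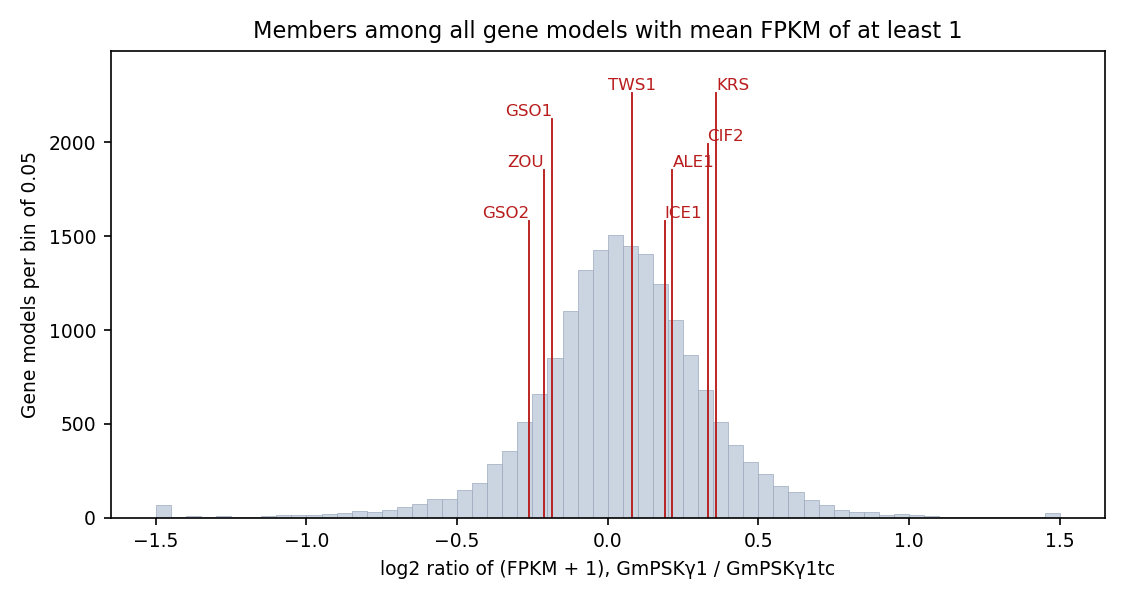
Distribution of the log2 ratio of FPKM + 1, GmPSKγ1 over GmPSKγ1tc, over the 17816 gene models that averaged 1 FPKM or more, in bins of 0.05, with the 8 measured genes as red lines. The outermost bins also hold the 85 models with a ratio beyond 1.5 in size, and the 8 genes lie between -0.26 and 0.36, within the body of the distribution.

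A ratio between 2 genes can be compared across libraries without any assumption on library scale or gene length, because both cancel. Such comparisons were made for 10 pairs, chosen after the single ratios were known, mostly with a higher gene over a lower one, so they describe those ratios on a scale-free footing and are no further support for them. Intervals are exact conditional odds ratios and cover counting error only, and pairs that share a gene are not independent. Relative to GSO2, KRS was 1.56-fold higher in GmPSKγ1 than in GmPSKγ1tc (1.30 to 1.88) and ALE1 was 1.42-fold higher (1.23 to 1.63). Relative to GSO1, ALE1 was 1.34-fold higher (1.16 to 1.55). The ligand gene TWS1 was 1.28-fold higher relative to GSO2 (1.14 to 1.44) and 1.21-fold higher relative to GSO1 (1.08 to 1.37).

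The same comparison set KRS, ALE1 and ICE1 against the factor ZOU. Relative to ZOU, KRS was 1.51-fold higher in GmPSKγ1 (1.17 to 1.97), ALE1 was 1.38-fold higher (1.09 to 1.74), and ICE1 was 1.34-fold higher (1.08 to 1.66, on approximate reads). For 2 pairs the interval included no change: GSO2 relative to GSO1, the receptor genes, had 0.947 (0.838 to 1.07), and KRS relative to ALE1 had 1.10 (0.904 to 1.34). These intervals cover counting error in the 2 libraries alone and do not show that a shift within these pairs is absent.

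ZOU and ICE1 are bHLH factors, whose family binds variants of CANNTG. Whether they bind at ALE1 or KRS, whose expression needs them, was not tested. The 250 bases before the annotated start of each of these genes are shown. They lie at chr1:23055673-23055922 (ALE1) and chr1:18764368-18764617 (KRS) of TAIR10.1, both on the minus strand and overlapping no other annotated gene, and were read from RefSeq's genome 5′ to 3′ along the gene. Capitals mark each match of CANNTG, a motif that is its own reverse complement and so covers both strands.
ALE1: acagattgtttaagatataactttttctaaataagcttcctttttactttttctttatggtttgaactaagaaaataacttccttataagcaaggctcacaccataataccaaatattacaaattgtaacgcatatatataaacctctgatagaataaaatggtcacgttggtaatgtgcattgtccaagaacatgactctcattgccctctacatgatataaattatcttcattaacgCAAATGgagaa
KRS: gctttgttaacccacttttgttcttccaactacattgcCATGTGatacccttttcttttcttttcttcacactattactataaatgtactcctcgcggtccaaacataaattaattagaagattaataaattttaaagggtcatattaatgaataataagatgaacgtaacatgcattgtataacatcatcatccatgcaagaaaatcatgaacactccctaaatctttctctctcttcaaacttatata
Each holds 1 match, CAAATG in ALE1 and CATGTG in KRS, and 55.7% of 33054 windows of this length hold at least 1, with a median of 1 match. The form CACGTG, a subset of the same motif, occurred in neither and in 5.86% of all windows. Among the other members it occurred in that of TWS1.

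Genes that act with the members were taken from lists chosen with earlier results of these data known, so their counts are descriptions. For this list and those below, the background is 57.9% of all measured models with a log2 ratio above 0, and a median of 0.05. Of 13 genes for peptide maturation, co-receptors and downstream signalling, 12 were measured, 4 higher and 8 lower in GmPSKγ1, with a median log2 ratio of -0.13, or -0.21 when rescaled without the 50 most abundant genes. TPST, whose product sulfates these peptides, stood at 8.83 FPKM in GmPSKγ1 and 7.90 FPKM in GmPSKγ1tc (ratio interval 0.933 to 1.34). SBT1.8, a subtilase that can also process the TWS1 precursor, was the most abundant of the list, with 136 FPKM in GmPSKγ1 and 149 FPKM in GmPSKγ1tc (0.881 to 0.947). SERK4, BAK1 and SERK2, co-receptor kinase genes, had ratios of 0.926, 0.890 and 0.873, and that of SERK1 was 1.06, each with an interval that included 1. The models of SERK1 and SERK2 overlap others.

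The widest difference of that list lay in an oxidase gene. RBOHD, which encodes a plasma membrane NADPH oxidase, had 12.2 FPKM in GmPSKγ1 and 25.8 FPKM in GmPSKγ1tc, with a log2 ratio of -1.02 and a ratio of 0.474 (0.430 to 0.521). It was the sole gene of the list past 2-fold. RBOHF, the oxidase gene known to act with GSO1 at the Casparian strip, had 12.7 FPKM in GmPSKγ1 and 14.5 FPKM in GmPSKγ1tc (0.794 to 0.963). For the kinase gene MKK4 the levels were 8.79 FPKM in GmPSKγ1 and 11.3 FPKM in GmPSKγ1tc (0.653 to 0.932). SGN1, a cytoplasmic kinase gene of the root pathway, was listed at 0 in both.

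Paralogs of the members were mostly silent. CIF3 and CIF4, the other genes of the CIF family, were listed at 0 in both libraries, as were GRI and the 4 other Stig1 family genes looked at beside KRS. ICE2, the paralog of ICE1, had 29.2 FPKM in GmPSKγ1 and 26.9 FPKM in GmPSKγ1tc (0.986 to 1.19). SPCH, a partner of ICE1 in the stomatal lineage, had 7.47 FPKM in GmPSKγ1 and 6.68 FPKM in GmPSKγ1tc (0.863 to 1.45). MUTE and FAMA, the later stomatal partners, were below 1 FPKM in both.

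Of 18 precursor genes of other sulfated peptides, 12 were measured, 5 higher and 7 lower, none past 2-fold on the log2(FPKM + 1) scale. Their median was -0.06, or -0.13 without the 50 most abundant genes, -0.03 scaled to a common sum and -0.01 with no minimum FPKM. PSK4 was the sole gene of this list above TWS1 in either library, with 774 FPKM in GmPSKγ1 and 820.3 FPKM in GmPSKγ1tc. The largest difference was that of PSY1, whose model overlaps another, with 24.0 FPKM in GmPSKγ1 and 16.5 FPKM in GmPSKγ1tc. PSK2 followed with 1.23 FPKM in GmPSKγ1 and 1.801 FPKM in GmPSKγ1tc (0.285 to 1.60), and PSY2, whose model also overlaps another, with 3.71 and 2.84 FPKM. Of 8 other receptor genes of sulfated peptides, 6 were measured, 1 higher and 5 lower, with a median of -0.15. PSKR1 had 4.67 FPKM in GmPSKγ1 and 6.54 FPKM in GmPSKγ1tc (0.602 to 0.848), PSKR2 had 4.86 and 6.12 FPKM (0.674 to 0.937), and RGI4 had 1.68 and 2.19 FPKM (0.583 to 0.999, on approximate reads). RGI5, the most abundant, had 8.19 FPKM in GmPSKγ1 and 8.43 FPKM in GmPSKγ1tc, so both GSO receptors stood above every receptor gene of the list in both libraries.

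Of 19 genes of embryo epidermis and cuticle, 16 were measured, in RNA of whole seeds that does not separate the embryo from other tissues. In GmPSKγ1, 3 were higher and 13 lower, with a median of -0.10, or -0.18 without the 50 most abundant genes. Over all measured models, 57.9% had a log2 ratio above 0 and the median was 0.05. None was past 2-fold on the log2(FPKM + 1) scale, though GPAT4 was past it in plain FPKM, with a ratio of 0.445. GPAT4, an acyltransferase of cutin synthesis, had 4.08 FPKM in GmPSKγ1 and 9.15 FPKM in GmPSKγ1tc (0.357 to 0.554). CYP86A2, a fatty acid hydroxylase gene whose model overlaps another, had 32.2 and 46.8 FPKM, and LACS2, an acyl-CoA synthetase gene of cutin synthesis, had 23.4 and 29.5 FPKM (0.723 to 0.866). LTPG1, a lipid transfer protein gene and the most abundant, stood at 566 FPKM in GmPSKγ1 and 579.7 FPKM in GmPSKγ1tc (0.945 to 1.01). The epidermal identity genes ATML1 and PDF2 had ratios of 0.922 (0.875 to 0.971, on approximate reads) and 0.892 (0.852 to 0.934). On the higher side, DCR had 252 FPKM in GmPSKγ1 and 221 FPKM in GmPSKγ1tc, a ratio of 1.14 (1.10 to 1.18). It was the sole measured gene of this list whose interval lay above 1. The receptor kinase gene ACR4 had 1.12 (0.992 to 1.27).

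Most transcripts tied to the root structure where CIF1, CIF2 and GSO1 are best known were low in these whole seeds. Of 8 Casparian strip genes, CASP1 to CASP5 and MYB36 were below 1 FPKM in both libraries. ESB1 had 2.76 FPKM in GmPSKγ1 and 2.69 FPKM in GmPSKγ1tc. PER64, a peroxidase gene, stood at 2.23 FPKM in GmPSKγ1 and 7.07 FPKM in GmPSKγ1tc, past 2-fold on the log2(FPKM + 1) scale. The models of ESB1 and PER64 each overlap another.

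**Figure D5:**
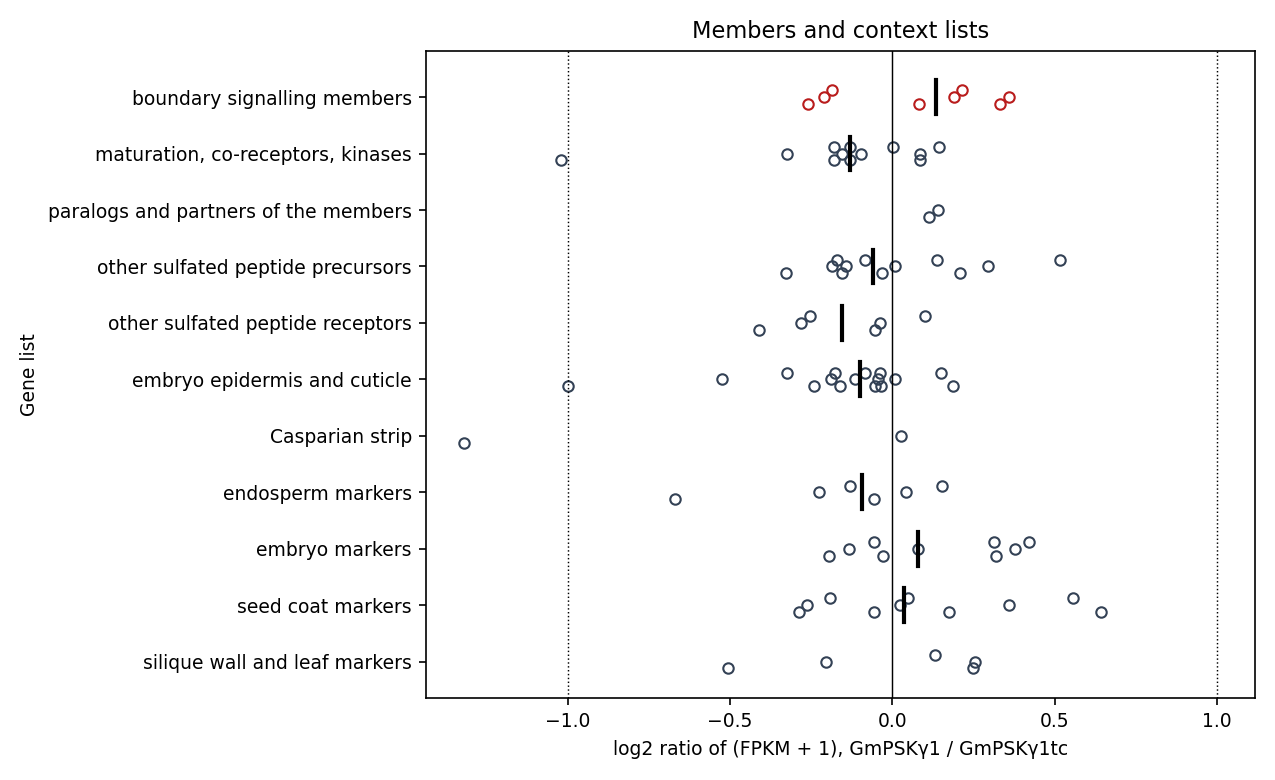
Log2 ratio of FPKM + 1, GmPSKγ1 over GmPSKγ1tc, for each gene that averaged 1 FPKM or more among the 8 boundary genes (red) and the context lists (dark open circles), with the median as a bar where at least 6 genes were measured and 2-fold as dotted lines. RBOHD and PER64 lie past the lower dotted line, GPAT4 lies just inside it, and no gene lies past the upper one.

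Markers of the seed's compartments were read beside the members. Of 10 embryo markers 9 were measured, 5 higher and 4 lower in GmPSKγ1, with a median of 0.08 (-0.0015 without the 50 most abundant genes, 0.20 both scaled to a common sum and with no minimum FPKM) and a summed level of 561 FPKM in GmPSKγ1 and 509 FPKM in GmPSKγ1tc. The largest differences were those of WOX8 (4.06 and 2.78 FPKM), LEC2 (4.68 and 3.37 FPKM) and LEC1 (19.2 and 15.2 FPKM), each higher in GmPSKγ1. FUS3 was the most abundant, with 249 and 235 FPKM. Of 13 endosperm markers 6 were measured, 2 higher and 4 lower, with a median of -0.09 and a summed level of 3716 FPKM in GmPSKγ1 and 4349 FPKM in GmPSKγ1tc. Nearly all of that sum was EPR1, an extensin-like gene of the endosperm, with 3640.1 and 4261 FPKM. YUC10, an auxin synthesis gene of the endosperm, had 15.4 FPKM in GmPSKγ1 and 25.1 FPKM in GmPSKγ1tc (0.527 to 0.713). MEA had 1.73 and 1.45 FPKM, while IKU2, MINI3, AGL36 and MPC were at 0 in both.

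Markers of the seed coat, a maternal tissue, were present as well, and a list of silique wall and leaf genes was read beside them. Of 11 seed coat markers 10 were measured, 6 higher and 4 lower, with a median of 0.04 (-0.04 without the 50 most abundant genes, -0.02 by the median ratio) and a sum of 1128 FPKM in GmPSKγ1 and 1140 FPKM in GmPSKγ1tc. MUM2, MYB61 and BAN had ratios of 1.58, 1.48 and 1.29, and TT10, the most abundant, had 0.875. Of 8 silique wall and leaf markers 5 were measured, 3 higher and 2 lower, summing to 2549 and 2172 FPKM, of which RBCS1A made up 2421 FPKM in GmPSKγ1 and 2030 FPKM in GmPSKγ1tc. RBCS2B had 2.05 and 3.34 FPKM, and SHP1, whose model overlaps another, had 14.7 and 12.2 FPKM. SHP2, whose model also overlaps another, had 105 FPKM in GmPSKγ1 and 121 FPKM in GmPSKγ1tc. The fruit wall genes FUL and IND were below 1 FPKM in both. Whether the other transcripts of this list came from wall, leaf or seed tissue was not tested, so their sum measures no wall or leaf content. The part of these marker levels in the differences of the receptor and endosperm genes was not tested.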

How the data were processed

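The authors deposited 1 table of FPKM per library, a level corrected for the length of the gene model and for library size. Bowtie 0.12.2 and the build TAIR10 are named in the submitters' processing notes. No source used here gives the program behind the FPKM, the annotation release or the strand setting. Models matched RefSeq locus tags (TAIR10.1) for 32835 of 33602, which gave exon lengths and sequences.

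The FPKM worth of 1 read was estimated from low values of single-exon models with unchanged ends. Below 200 reads, 99.2% of such values in GmPSKγ1 and 99.1% in GmPSKγ1tc were whole within 0.05. Reads per gene used the RefSeq transcript, trimmed to the deposited ends, that gave whole reads in both libraries, or else the longest. The comparison and the intervals were tested on simulated reads with counting error alone. Such reads share the assumption of the intervals and say nothing of the spread between lines or libraries. Python 3.11.15 and SciPy 1.17.1 were used.

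With 1 library per genotype no test was made, and samples were grouped by title. The members are defined by identifier, with no threshold on values, but they and the 10 lists (119 entries) were proposed with earlier results of these data known. All members are named, and from each list the 3 largest absolute log2 ratios among measured genes, the most abundant gene, and TPST, SBT1.8, CIF3, CIF4 and ICE2, besides the models next to each member. Other genes were named after their values were seen. Alternatives were other pseudocounts, FPKM minimums, thresholds and scalings. Protein sequences were not used here.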

Additional observations from a re-analysis of the deposited data

How the results depend on the processing

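A pseudocount cannot change the direction of a ratio, so those of 0.1 and 5 could alter its size alone. Under the 3 rescalings each member with a mean of at least 1 FPKM kept its direction. TWS1 came down to a log2 ratio of 0.00085 without the 50 most abundant genes. The other lowest and highest values were 0.28 and 0.37 for KRS, and -0.34 and -0.21 for GSO2. None of these 8 members was 2-fold apart under any pseudocount, scaling or minimum tried, and so none was 4-fold apart. None passed 1.5-fold when that was the threshold. CIF1, on 2 and 0 reads, is too low for a fold. With the intervals rescaled without the 50 most abundant genes, an alternative chosen after seeing the data, 2 lay above 1 (ICE1 and KRS) and 3 below (GSO1, GSO2 and ZOU). By the median ratio or the sum they were those reported.

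Over all genes, 73 higher and 146 lower became 179 and 231 with a pseudocount of 0.1, 14 and 54 with 5, 30 and 85 with a minimum of 5 FPKM, 557 and 478 at 1.5-fold, and 11 and 29 at 4-fold. The count of higher genes was 113 after scaling to a sum of 1000000, which raises all values against the pseudocount. The median of the maturation and signalling list was -0.21 without the 50 most abundant genes. With pseudocounts of 0.1 and 5 that of the other receptors was -0.19 and -0.07 (-0.05 with no minimum) and that of the endosperm markers -0.14 and -0.05 (-0.06 with no minimum). No paired analysis was possible because each genotype has 1 library. Low counts limit CIF1 and CIF2.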

Other observations

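Neighbouring gene models gave values that belong to no comparison above. The nearest model before CIF2, GBF6, ends 5994 bases away and overlaps another model. Its level was 143 FPKM in GmPSKγ1, against 0.381 FPKM in GmPSKγ1tc. The model after CIF2, BLH6, lies 146 bases away and had 18.0 FPKM in GmPSKγ1 and 16.5 FPKM in GmPSKγ1tc. AT4G20150, whose last bases overlap GSO1 on the other strand, had 69.4 FPKM in GmPSKγ1 and 55.5 FPKM in GmPSKγ1tc, higher where GSO1 was lower. PTAC14, before GSO1, had 13.99 FPKM in GmPSKγ1 and 8.28 FPKM in GmPSKγ1tc. AT1G62333 lies 61 bases from the end of ALE1 and had 328 FPKM in GmPSKγ1 and 338 FPKM in GmPSKγ1tc. Close to equal were DRD1 next to CIF1 (16.5 and 16.9 FPKM), PAB8 next to ZOU (36.4 and 34.7 FPKM) and ERF3 next to KRS (37.7 and 37.0 FPKM). The other neighbours were below 6 FPKM in both libraries.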
